A study of Mus musculus with 8 samples.

Results

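Bone morphogenetic proteins (BMPs) and transforming growth factors beta (TGF-betas) are secreted dimers of 1 protein superfamily. Here the ligands are Bmp2, Bmp4, Bmp5, Bmp6, Bmp7, Bmp10, Tgfb1, Tgfb2 and Tgfb3. They were taken by name, through the gene name or the accession of each probe, and all 9 were found among 24385 genes measured in mouse outflow tracts. They had 11 probes among 55681 on the array, and 10 of these were among the 33400 kept for testing. The outflow tract, the vessel-like outlet of the embryonic heart, was dissected at E10.5 and pooled, 4 tracts to a pool. The 4 knockout pools, numbered 1, 2, 3 and 7, held Raldh2-/- embryos, and the 4 wild type pools, numbered 1, 2, 5 and 7, held their littermates. Raldh2, whose current symbol is Aldh1a2, encodes a dehydrogenase that oxidises retinaldehyde to retinoic acid. Both groups came from dams that ate all-trans-retinoic acid at 0.1 mg per g of food between E7.5 and E8.5, so the knockout embryos are rescued mutants and the wild type embryos had the same exposure. A group without the supplement was not analysed here. The labels do not state from how many litters a pool was made.

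Ligands of both branches bind pairs of type I and type II serine/threonine kinase receptors, which phosphorylate Smad proteins that then enter the nucleus. BMP ligands act through one set of receptor Smads and TGF-betas through another, and both share Smad4. In the outflow tract, BMPs made by the myocardium and TGF-betas made by several layers act on the endocardium, the cushion mesenchyme and the incoming neural crest. Bmp4 is known for its part in septation of the outflow tract, and loss of Tgfb2 in mice gives outflow tract and septal defects.

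One array, that of wild type pool 1, differed from the rest before any comparison. Its spots were well above background in 94.7% of cases, against 53.3% to 63.2% on the other 7 arrays. Its 75th percentile of signal was 4133, against 558 to 958 on the other 7. Its median correlation with other arrays was 0.775, against 0.979 to 0.989 for the other 7. Each log2 value below is a probe's signal minus the array's 75th percentile, both in log2, so it is a level relative to the array. Such levels cannot be compared between probes. They can be compared between pools, except that those of wild type pool 1 are taken against a far higher percentile. Before scaling, its signal was from 0.83 (Tgfb2) to 123 (Bmp10) times the median of the other 7 arrays. Differences are given over 8 arrays and over the 7 arrays without that pool. Aldh1a2 itself had log2 levels of 2.26, 2.23, 2.11 and 0.28 in knockout pools 1, 2, 3 and 7, against 1.95, 3.44, 3.21 and 3.89 in wild type pools 1, 2, 5 and 7. Over 7 arrays the groups did not overlap, the knockout pools being lower, with a log2 fold change of -1.80 ± 0.50 (SE; limma adjusted p = 0.384). Over 8 arrays it was -1.40 ± 0.57 (adjusted p = 0.735). Whether its 1 probe lies in the deleted part of the gene was not checked here. The sampled tissue had measured markers of each cell type looked for, among them 12 of 12 for heart muscle, 10 of 10 for endocardium and endothelium, and 8 of 8 for cushion mesenchyme.

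The probes of 3 ligands are shown because their letters bear on how the results can be read. They are 60 bases long, and their sequences come from the scanner files, with positions on mm9. The Tgfb1 probe (chr7:26489877-26489936, plus strand) and one Tgfb2 probe (chr1:188449333-188449392, minus strand) lie over a coding stretch that both genes share. Without gaps, 28 of 41 overlapping bases are identical (68.3%), and capitals mark those bases. The Bmp10 probe (chr6:87384427-87384486, plus strand) ends at the stop codon, in capitals. Bmp10 is the ligand with the weakest kept signal.
Tgfb1: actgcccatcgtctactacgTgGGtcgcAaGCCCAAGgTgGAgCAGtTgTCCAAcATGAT
Tgfb2: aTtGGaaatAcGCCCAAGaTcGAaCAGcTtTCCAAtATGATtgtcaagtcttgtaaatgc
Bmp10: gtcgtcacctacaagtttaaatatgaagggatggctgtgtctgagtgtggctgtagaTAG

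The other probes that stand for a ligand are given by place on mm9. Bmp2 was read at chr2:133388260-133388319 (plus strand) and Bmp7 on the same chromosome at chr2:172695203-172695262 (minus strand). Bmp5 was read at chr9:75746444-75746503 (plus strand), Bmp6 at chr13:38591479-38591538 (plus strand) and Tgfb3 at chr12:87397804-87397863 (minus strand). Exon and UTR annotation of that build was not used here.

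The comparison asked whether ligand expression in the outflow tract differs between rescued embryos that lack Raldh2 and rescued embryos that have it. None of the 9 ligands passed the test over all genes, with or without wild type pool 1. Over 7 arrays 7 ligands had lower means in the knockout pools (Bmp2, Bmp5, Bmp7, Bmp10, Tgfb1, Tgfb2 and Tgfb3) and 2 had higher means (Bmp4 and Bmp6), with a median log2 fold change of -0.28. Over all genes the median was 0.047, with 42% of genes below 0 and 58% above. Over 8 arrays 7 ligands had higher means, with a median of 0.27, against 0.18 over all genes and 59.4% of genes above 0. The members were chosen with results of these pools known, and these counts are a description. Bmp10, one of the 7, was above background in 1 of 4 knockout pools.

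Of the 13 lists of cell type markers, those whose means all lay on one side over the same 7 arrays are given here. Other lists were split. Cushion mesenchyme had 4 lower and 4 higher means (median log2 fold change 0.016), and second heart field 5 and 5 (-0.0058). Endocardium and endothelium had 6 lower and 4 higher (-0.062), and neural crest 3 and 4 (0.013). All are given with the 75th percentile scaling alone. Means of 12 of 12 cardiomyocyte markers were lower in knockout pools (median log2 fold change -0.19). Means of 8 of 8 erythroid markers were higher (median 0.64), with a summed level of 1433 to 2283 times the 75th percentile in knockout pools, against 1082 to 2190 in wild type pools 2, 5 and 7. Means of 6 of 6 macrophage and leukocyte markers were higher as well (median 0.18), with sums of 4.83 to 10.2 and 4.19 to 9.78. The ranges of these sums overlapped between the groups, and the part of these cells in the ligand values was not tested.

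**Figure D1:**
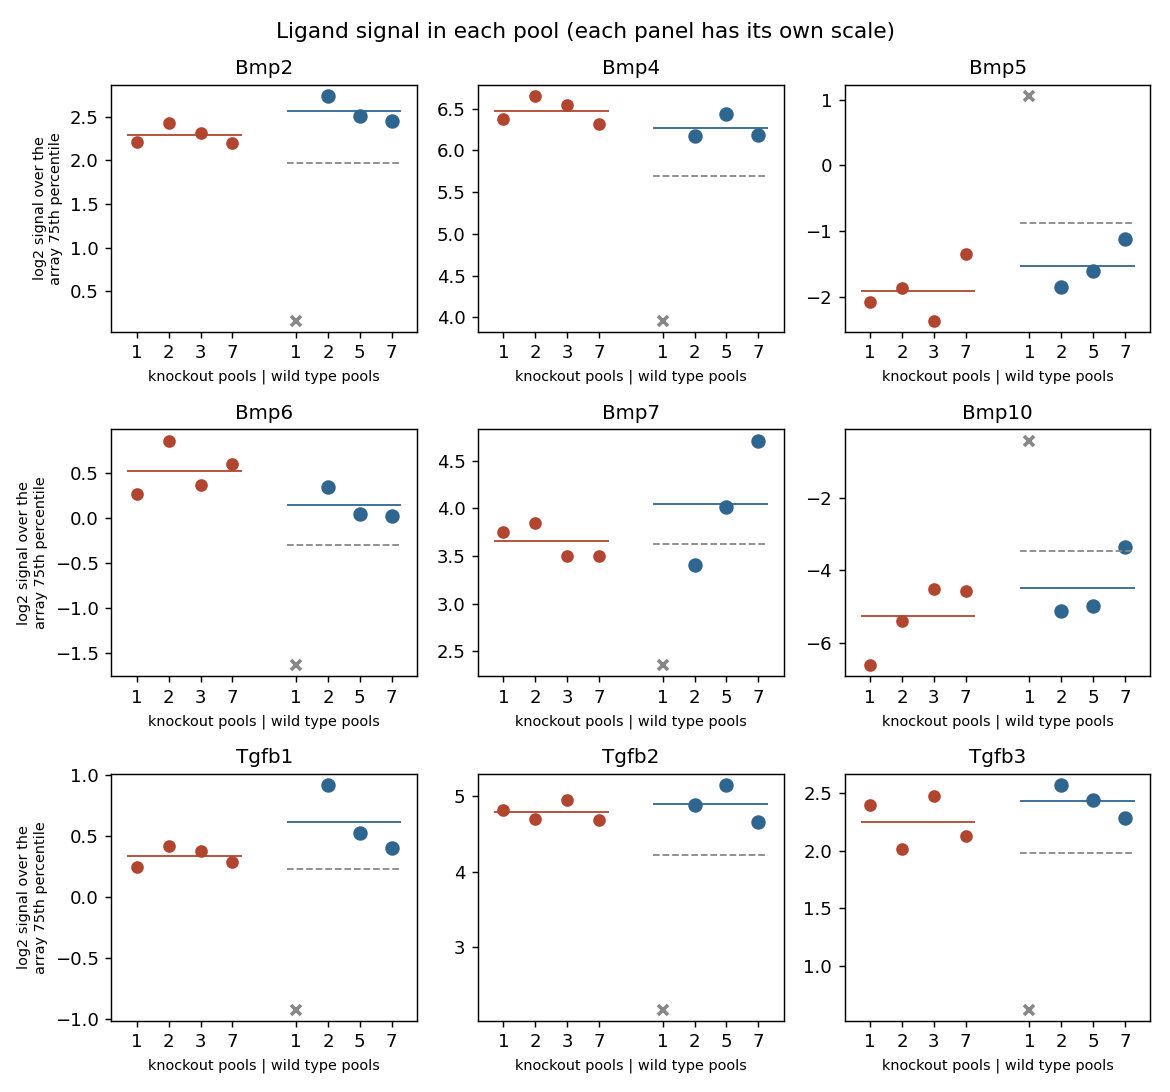
Level (log2 signal minus the log2 75th percentile of the array) of the 9 ligands, with knockout pools 1, 2, 3 and 7 on the left and wild type pools 1, 2, 5 and 7 on the right of each panel. Solid lines are group means (wild type without pool 1), the dashed line is the mean of all 4 wild type pools, and the cross is wild type pool 1, which lies below the other 7 pools in 7 panels and above them in 2 (Bmp5 and Bmp10).

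Genes were tested with limma (two-sided, threshold 0.05 after Benjamini-Hochberg adjustment over the 24385 genes). It called 0 genes (0%) over 8 arrays and 0 (0%) over 7. An unadjusted p under 0.05 was reached by 375 genes (1.54%) over 8 arrays and by 2491 (10.2%) over 7. Among the ligands 0 of 9 reached it over 8 arrays. Over 7 arrays 1 of 9 did (Bmp2, lower), near the 10.2% of all genes (4.34% lower). With no overlap between groups stood 0 of 9 ligands over 8 arrays, against 5.5% of all genes, and 1 of 9 over 7 arrays (Bmp2, lower), against 11.3% of all genes (4.91% lower). In bulk tissue, fewer cells of a type and less RNA per cell cannot be told apart.

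Among the BMPs, Bmp4 is a ligand of the outflow tract myocardium and of the second heart field that adds cells to it. Its log2 level was 6.38, 6.65, 6.54 and 6.31 in knockout pools 1, 2, 3 and 7, against 3.96, 6.18, 6.44 and 6.18 in wild type pools 1, 2, 5 and 7. The groups overlapped, since knockout pools 1 and 7 lay below wild type pool 5. Over 7 arrays the means were 6.47 ± 0.15 (SD, n = 4) in knockout pools and 6.26 ± 0.15 (SD, n = 3) in wild type pools. The log2 fold change was 0.20 ± 0.13 (SE; 1.15-fold; limma adjusted p = 0.596), with a 95% interval of -0.093 to 0.50. Over 8 arrays it was 0.78 ± 0.53 (adjusted p = 0.735). Scaling by the array median in place of the 75th percentile lowered all 7-array differences by the same amount. Bmp4 went to -0.016, of the opposite sign, and the median over all genes to -0.17. The place of Bmp4 above that median cannot change with such a shift.

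A second Bmp4 probe gave no usable signal. It lies 193 bases downstream on the genome (chr14:47003198-47003257, mm9, minus strand), against chr14:47003391-47003450 for the probe used. Its processed signal was 5.83, 4.94, 5.98 and 8.78 in the knockout pools and 4.56, 4.23 and 6.50 in wild type pools 2, 5 and 7. It was not well above background on any of these 7 arrays. In wild type pool 1 its signal was 552, and there alone it was called well above background. Only 15% of its bases are G or C, and 27 of 55681 probes have so low a share. The values of Bmp4 therefore rest on 1 probe.

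Bmp6, a ligand of the group that also holds Bmp5 and Bmp7, was the other one with a higher knockout mean in both fits. Pool by pool the log2 level was 0.26, 0.85, 0.37 and 0.59 in knockout pools 1, 2, 3 and 7, against -1.64, 0.34, 0.037 and 0.022 in wild type pools 1, 2, 5 and 7. Only knockout pool 1 lay within the range of wild type pools 2, 5 and 7, below wild type pool 2. The log2 fold change over 7 arrays was 0.38 ± 0.17 (SE; 1.30-fold; limma adjusted p = 0.496), with a 95% interval of -0.017 to 0.78, and over 8 arrays it was 0.83 ± 0.45 (adjusted p = 0.735). The Bmp6 difference was above 88.0% of all genes over 7 arrays and above 96.6% over 8. The 8-array value includes wild type pool 1 at -1.64. Before scaling, the Bmp6 signal of that pool was 1330, within the 567 to 1486 of the other 7 arrays. The Bmp6 difference kept its sign in every scaling run and with any 1 pool left out. This held also when wild type pool 1 was left out with it, where the difference ran from 0.27 to 0.49.

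**Figure D2:**
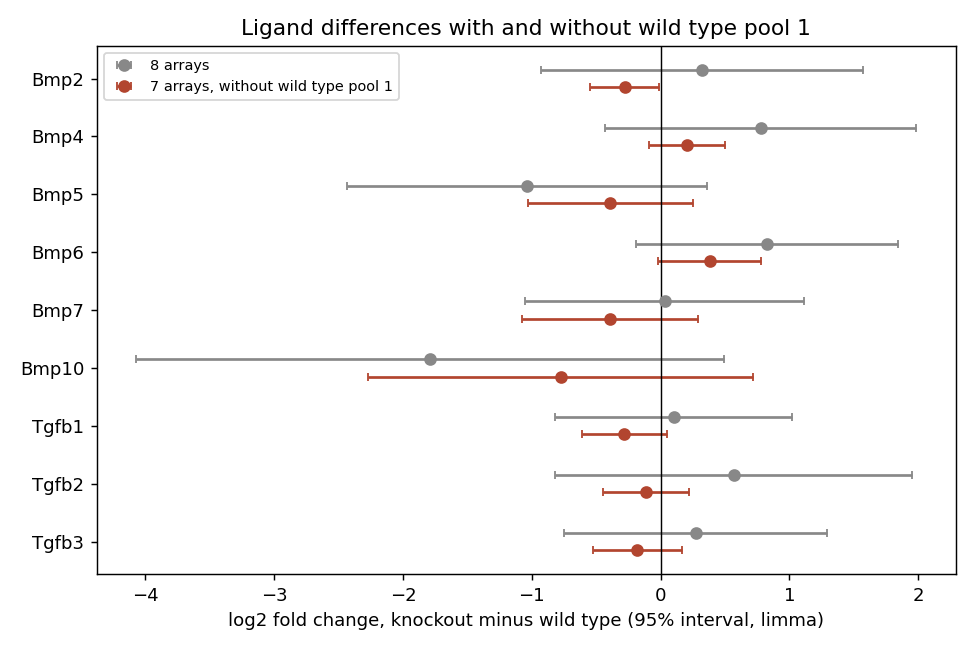
Log2 fold change of each ligand, knockout minus wild type, with the 95% interval from limma, over 8 arrays (grey) and over the 7 arrays without wild type pool 1 (red). The grey intervals all hold 0, and among the red ones the interval of Bmp2 alone does not (-0.55 to -0.0098).

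The promoters of Bmp4 and Bmp6 are shown because these 2 ligands had higher means in both fits. The set of RefSeq promoters used here (GRCm38.p6, from 250 bases before to 50 after the start) does not cover every chromosome. It holds 6 of the 9 ligands, namely Bmp4, Bmp5, Bmp6, Bmp10, Tgfb1 and Tgfb2. Capitals mark CACGTG, which holds the letters ACGTG on both strands, the core of the hypoxia response element and of E-boxes.
Bmp4 (chr14:46390620-46390919, minus strand): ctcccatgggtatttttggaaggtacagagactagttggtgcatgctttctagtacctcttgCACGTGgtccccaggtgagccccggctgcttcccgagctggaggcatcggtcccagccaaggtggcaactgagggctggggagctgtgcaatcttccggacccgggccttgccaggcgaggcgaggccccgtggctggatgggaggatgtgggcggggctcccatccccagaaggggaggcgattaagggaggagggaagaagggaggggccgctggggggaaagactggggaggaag
Bmp6 (chr13:38345466-38345765, plus strand): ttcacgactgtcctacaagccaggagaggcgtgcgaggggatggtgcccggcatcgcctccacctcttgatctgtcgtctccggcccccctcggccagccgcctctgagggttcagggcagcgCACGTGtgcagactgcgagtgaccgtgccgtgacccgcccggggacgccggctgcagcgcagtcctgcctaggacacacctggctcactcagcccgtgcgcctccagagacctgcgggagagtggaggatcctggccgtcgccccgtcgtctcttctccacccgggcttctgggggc

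CACGTG stood in 3 of these 6 promoters (Bmp4, Bmp6 and Tgfb2), and 7.15% of the 32851 promoters in the set hold it. Those of Bmp5, Bmp10 and Tgfb1 do not. As no ligand passed the test in either fit, the directions of their differences are not set against these letters. A link between these letters and the ligand values was not tested. On both strands, ACGTG was in the same 3, against 19.6% of all promoters. The retinoic acid receptor half-sites AGGTCA and AGTTCA were in 0 of 6, against 16.3% and 14.0% of all promoters, and so were direct repeats of AGGTCA spaced by 5 or by 2 bases, each in 0.00913% of all promoters. The Smad-related letters GGCGCC and GTCTAGAC were also in 0 of 6, against 11.9% and 0.213%. These windows are short and the matches are a description of their letters.

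Bmp2, which works with the endocardium in forming cushions, was the 1 ligand whose groups did not overlap without wild type pool 1. The log2 level of Bmp2 was 2.21, 2.43, 2.32 and 2.20 in knockout pools 1, 2, 3 and 7, against 0.16, 2.74, 2.51 and 2.45 in wild type pools 1, 2, 5 and 7. The nearest pair was knockout pool 2 and wild type pool 7. Its log2 fold change over 7 arrays was -0.28 ± 0.11 (SE; 1.21-fold lower; limma unadjusted p = 0.0440, adjusted p = 0.482). Over 8 arrays it was 0.32 ± 0.55 (adjusted p = 0.771), of the opposite sign. The 7-array difference was larger than the SD of either group (0.11 for the knockout and 0.15 for the wild type pools) but not than the range of wild type pools 2, 5 and 7, and it does not pass the test over all genes. With 1 further pool left out its unadjusted limma p ran from 0.0366 to 0.139.

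Bmp7, expressed in myocardium and in epithelia of the pharynx, varied widely among the wild type pools. Levels on the log2 scale were 3.75, 3.85, 3.50 and 3.50 in knockout pools 1, 2, 3 and 7, against 2.36, 3.41, 4.01 and 4.71 in wild type pools 1, 2, 5 and 7. Wild type pool 2 lay below every knockout pool, and wild type pools 5 and 7 above them all. Bmp7 had a log2 fold change of -0.39 ± 0.29 over 7 arrays (SE; limma adjusted p = 0.652) and 0.031 ± 0.48 over 8 (adjusted p = 0.973). Leaving out wild type pool 7 as well gave a 7-array value of -0.057, and leaving out wild type pool 2 in its place gave -0.71. The summed level of the 10 pharyngeal endoderm and epithelium markers ran from 43.6 to 65.2 times the array's 75th percentile in knockout pools, against 60.05 to 101 in wild type pools 2, 5 and 7. The sum rests on the bright keratins Krt8, Krt18 and Krt19, which had lower means in knockout pools, whereas 6 of the 10 markers had higher means there, with a list median of 0.61 over 7 arrays. The part of these markers in the Bmp7 values was not tested.

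Bmp5 had weak signals. Bmp5 levels (log2) were -2.09, -1.87, -2.36 and -1.36 in knockout pools 1, 2, 3 and 7, against 1.06, -1.86, -1.61 and -1.12 in wild type pools 1, 2, 5 and 7. The groups overlapped through knockout pool 7. Bmp5 had a log2 fold change of -0.39 ± 0.27 over 7 arrays (SE; limma adjusted p = 0.632) and -1.04 ± 0.62 over 8 (adjusted p = 0.735). With 1 further pool left out the 7-array value ran from -0.19 (without wild type pool 7) to -0.58 (without knockout pool 7). On the unscaled signal wild type pool 1 read 8589, against 186 to 295 in the other 7 pools.

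**Figure D3:**
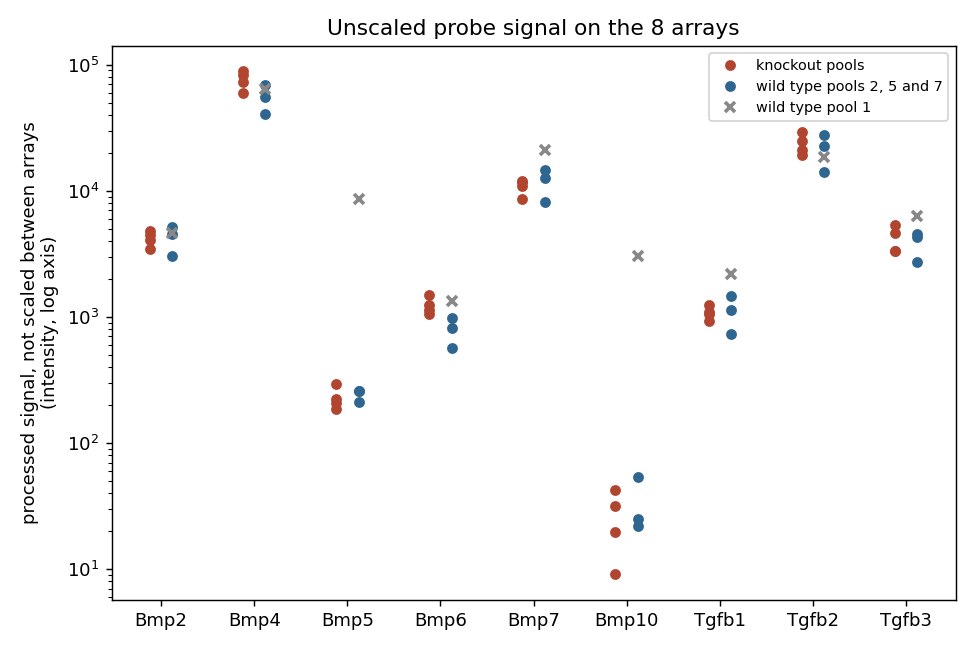
Processed signal of each ligand's probe before scaling between arrays, on a log axis, for knockout pools (red, left of each pair), wild type pools 2, 5 and 7 (blue) and wild type pool 1 (grey cross). Heights of different ligands are not comparable, as probes differ. The cross lies within the range of the other 7 arrays for 4 ligands and above it for 5, most of all for Bmp5 and Bmp10.

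Bmp10, a ligand of trabecular heart muscle, was close to background. Its processed signal was 9.06, 19.6, 42.1 and 31.8 in knockout pools 1, 2, 3 and 7, against 3065, 22.1, 24.8 and 54.2 in wild type pools 1, 2, 5 and 7. The spot passed as well above background in knockout pool 3 alone of the 4, and in 4 of 4 wild type pools. It was thus kept for testing through the wild type group. For Bmp10 the log2 fold change was -0.78 ± 0.63 over 7 arrays (SE; limma adjusted p = 0.684) and -1.79 ± 1.01 over 8 (adjusted p = 0.735). On the scaled level the groups overlapped, from -6.61 to -4.51 in knockout pools and from -5.12 to -3.36 in wild type pools 2, 5 and 7. As 3 of 4 knockout pools were not above background, the size of this difference is not well measured. Without knockout pool 1 the 7-array difference was -0.33, and without wild type pool 7 it was -0.21.

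Other markers of working myocardium varied over the same pools. Nppa, a natriuretic peptide of trabecular and atrial muscle, had log2 levels of 1.75, 1.54, 4.26 and 3.83 in knockout pools 1, 2, 3 and 7, against 1.68, 4.47, 4.63 and 7.21 in wild type pools 1, 2, 5 and 7. Like Bmp10 it was highest, of the 7 pools, in wild type pool 7 and low in knockout pools 1 and 2. In the other pools they differed. Knockout pools 3 and 7 lay above wild type pools 2 and 5 for Bmp10 (-4.51 and -4.57, against -5.12 and -4.99). For Nppa they lay below them. Nppa was named after its values were seen. The summed level of the 10 trabecular and ventricular markers was 618 to 796 times the 75th percentile in knockout pools and 606 to 1192 in wild type pools 2, 5 and 7. That of the 12 cardiomyocyte markers was 1965 to 2255 and 1961 to 2907. Their part in the Bmp10 values was not tested. Of the 9 ligands Bmp10 varied most, with an SD of 0.99 over the 7 pools. Among the genes most like it by Pearson r over those 7 pools were Npr3 (0.987), H2bc4 (0.986), Ptchd4 (0.980) and Ssh2 (0.950). Over 8 pools the same coefficients were 0.766, -0.624, -0.763 and 0.987, so for H2bc4 and Ptchd4 the likeness is not seen with wild type pool 1 in. These r describe 1 weak probe that was not above background in 3 of the 7 pools, and the 7 points share the array scaling.

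None of the 3 TGF-betas passed the test, and the groups overlapped for each of them in the 7 arrays. Tgfb1, expressed mainly in endothelium and blood cells of the embryo, had log2 levels of 0.25, 0.42, 0.38 and 0.29 in knockout pools 1, 2, 3 and 7. It had -0.92, 0.92, 0.53 and 0.40 in wild type pools 1, 2, 5 and 7. The knockout pools lay close together, and only knockout pool 2 reached above a wild type pool other than pool 1, namely pool 7. Tgfb1 had a log2 fold change of -0.28 ± 0.14 over 7 arrays (SE; 1.22-fold lower; limma adjusted p = 0.532) and 0.10 ± 0.41 over 8 (adjusted p = 0.894). With 1 further pool left out the 7-array value ran from -0.13 (without wild type pool 2) to -0.39 (without wild type pool 7).

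Tgfb2, the ligand tied to cushion and septal development, had 2 kept probes. The coding probe had log2 levels of 4.81, 4.69, 4.95 and 4.68 in knockout pools 1, 2, 3 and 7, against 2.18, 4.87, 5.14 and 4.66 in wild type pools 1, 2, 5 and 7. The other probe lies 1799 bases downstream on the genome (chr1:188447534-188447593, mm9, minus strand). It had 3.56, 3.49, 3.50 and 3.66 in the knockout pools, against 1.17, 3.66, 3.68 and 3.26 in the wild type pools. The groups overlapped on both probes. Over 7 arrays the coding probe gave a log2 fold change of -0.11 ± 0.14 (SE, n = 4 and 3), with a 95% interval of -0.44 to 0.22 (limma adjusted p = 0.799). The other gave 0.017 ± 0.13, with an interval of -0.29 to 0.33 (limma adjusted p = 0.974 over all probes). Over 8 arrays they gave 0.57 ± 0.61 and 0.61 ± 0.55. Whether the Tgfb1 and Tgfb2 coding probes, which share the letters shown above, take up each other's RNA was not tested.

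Tgfb3, expressed in cushions and outflow tract wall, had log2 levels of 2.40, 2.01, 2.47 and 2.13 in knockout pools 1, 2, 3 and 7, against 0.62, 2.57, 2.44 and 2.28 in wild type pools 1, 2, 5 and 7. The groups overlapped. Tgfb3 had a log2 fold change of -0.18 ± 0.15 over 7 arrays (SE; limma adjusted p = 0.683), with a 95% interval of -0.52 to 0.16, and 0.27 ± 0.45 over 8 (adjusted p = 0.765). It was -0.10 over 7 arrays without knockout pool 2 and -0.11 without wild type pool 2.

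The array prints the probes of Tgfb1 and Tgfb3 10 times each, which shows the error within an array. On 1 array the SD of log2 signal over these spots was 0.049 to 0.096 for Tgfb1 and 0.029 to 0.093 for Tgfb3, with 8 to 10 spots used for Tgfb3 after removal of those marked by the scanner software. Between pools, where each value is a mean over the spots used, the SD was not larger in every group. For Tgfb1 it was 0.078 over knockout pools, within the range of the spots. A mean over spots varies less than single spots do. That value therefore does not show that the knockout pools differ by no more than the error within an array. Over wild type pools 2, 5 and 7 it was 0.27, above that range. For Tgfb3 it was 0.22 and 0.14, both above the range of its spots. The other 7 ligands have 1 spot per probe, and their within-array error was not measured here.

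The rest of the pathway was described by 6 further lists, of which 98 of 106 genes were measured. None of the 98 passed the limma test over all genes, over 8 or over 7 arrays. The counts of higher and lower means given below for each list depend on the scaling. Over all genes 58% were above 0 over 7 arrays and 59.4% over 8. With the array median in place of the 75th percentile, every list had more lower than higher means over 7 arrays. The Smads then had 2 higher and 14 lower, and the response genes 5 and 12. With quantile scaling these lists kept 12 and 4, and 11 and 6. Over 7 arrays 10 (10.2%) had an unadjusted p under 0.05, equal to the 10.2% of all genes, with 4 higher (5.87% of all genes) and 6 lower (4.34%) in knockout pools. Over 8 arrays 1 had, against 1.54% of all genes. The groups did not overlap in 7 of the 98 over 7 arrays (7.14%, against 11.3% of all genes), 3 of them higher (6.41% of all genes) and 4 lower (4.91%). Over 8 arrays they did not overlap in 3 (Smad5, Id1 and Id2), all higher, as 4.09% of all genes were.

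Of the other ligands of the superfamily 18 of 22 were measured, with 7 higher and 11 lower means over 7 arrays (median log2 fold change -0.090) and 3 higher and 15 lower over 8 (median -0.28). Gdf6, a BMP-like ligand, had 0.59 ± 0.24 over 7 arrays (SE; limma adjusted p = 0.478) and 0.74 ± 0.32 over 8. Gdf1, a nodal-related ligand, had -0.46 ± 0.17 and -0.29 ± 0.30. Nodal had -0.24 ± 0.096 without overlap over 7 arrays, and -0.15 ± 0.25 over 8. Gdf2, known as BMP9 and close to Bmp10 in sequence, had -0.51 ± 0.29 and -1.15 ± 0.62.

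Of the receptors and co-receptors 16 of 16 were measured, 7 with higher and 9 with lower means over 7 arrays (median -0.028). Over 8 arrays 12 were higher and 4 lower (median 0.24). Tgfbr2, the type II receptor of the TGF-betas, had log2 levels of 1.51, 1.42, 1.92 and 1.30 in knockout pools 1, 2, 3 and 7, against -0.22, 1.87, 1.87 and 1.95 in wild type pools 1, 2, 5 and 7. Knockout pool 3 alone reached the wild type range. Its log2 fold change was -0.36 ± 0.16 over 7 arrays (SE; limma adjusted p = 0.494) and 0.17 ± 0.51 over 8. Bmpr1b, a BMP type I receptor with weak signal, had 1.59 ± 0.79 and 0.60 ± 1.06, Acvr1c -0.45 ± 0.34 and -0.96 ± 0.55, and Hjv -0.39 ± 0.25 and -0.61 ± 0.36.

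Of the secreted inhibitors and modulators 16 of 18 were measured, 10 with higher and 6 with lower means over 7 arrays (median 0.065), and 9 with higher and 7 with lower over 8 (median 0.11). Both that did not overlap bind activins, and they were lower in knockout pools. Fst, follistatin, had log2 levels of -0.41, -1.0035, -0.11 and -1.45 in knockout pools 1, 2, 3 and 7, against -1.40, 0.015, 0.033 and 0.10 in wild type pools 1, 2, 5 and 7. Fstl3 had 1.99, 1.46, 2.38 and 1.30, against 2.06, 2.46, 2.72 and 2.52. In both, wild type pool 1 lay within the knockout range. Their log2 fold changes over 7 arrays were -0.79 ± 0.31 and -0.78 ± 0.26 (SE; limma adjusted p = 0.469 and 0.430), and over 8 arrays -0.43 ± 0.45 and -0.66 ± 0.33. Twsg1, a BMP-binding modulator, had 0.36 ± 0.17 over 7 arrays and 0.72 ± 0.40 over 8.

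Of the genes of latency, activation and processing 15 of 16 were measured, and 6 had higher and 9 lower means over 7 arrays (median -0.052). Over 8 arrays 12 were higher and 3 lower (median 0.38). Itgav, an integrin subunit that takes part in freeing latent TGF-beta, had -0.21 ± 0.10 over 7 arrays and -0.29 ± 0.25 over 8, and Emilin1 had -0.14 ± 0.17 and 0.0015 ± 0.29. Fbn1, the fibrillin that holds latent complexes in the matrix, had 0.17 ± 0.28 and 0.77 ± 0.59. Itgb8 had -0.16 ± 0.29 and -0.76 ± 0.59.

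**Figure D4:**
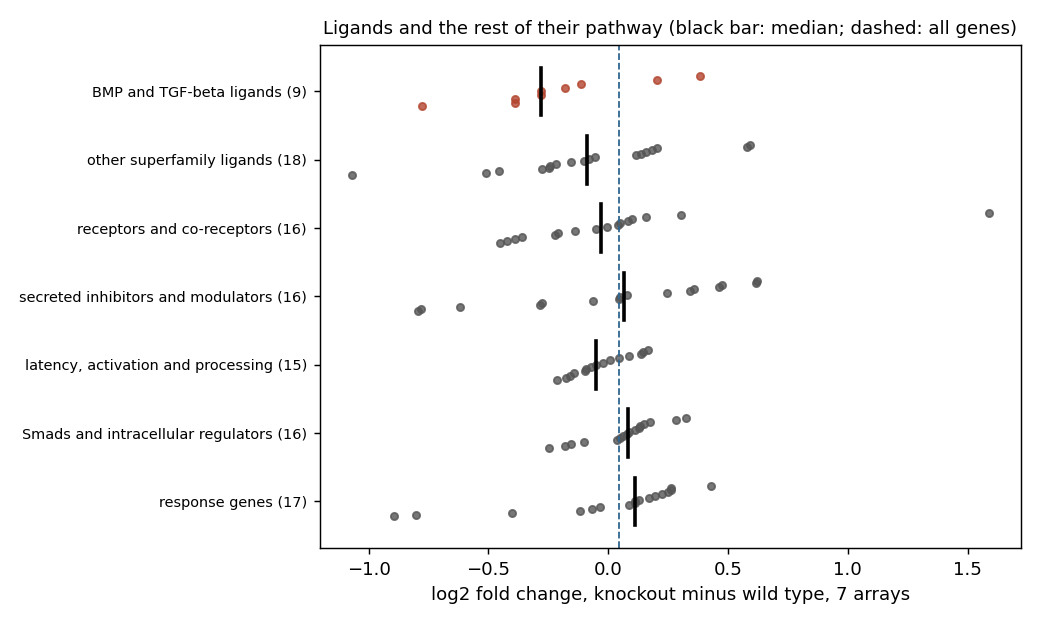
Log2 fold change over 7 arrays, knockout minus wild type, for each measured gene (point) of the 9 ligands and of 6 pathway lists, with the number measured in brackets. Black bars are list medians, from -0.28 for the ligands to 0.11 for the response genes, and the dashed line is the median of all genes (0.047).

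Of the Smads and intracellular regulators 16 of 16 were measured, 12 with higher and 4 with lower means over 7 arrays (median 0.083), and 14 with higher and 2 with lower over 8 (median 0.58). Smad5, a receptor Smad of the BMP branch, did not overlap in either fit. Smad5 levels (log2) were 4.06, 3.99, 4.09 and 3.99 in knockout pools 1, 2, 3 and 7, against 1.28, 3.85, 3.82 and 3.58 in wild type pools 1, 2, 5 and 7. Its log2 fold change was 0.28 ± 0.10 over 7 arrays (SE; limma adjusted p = 0.450) and 0.90 ± 0.56 over 8. Smad7, the inhibitory Smad that both branches induce, had 0.32 ± 0.13 and 0.82 ± 0.48.

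Of the response genes 17 of 18 were measured, 11 with higher and 6 with lower means over 7 arrays (median 0.11), and 15 with higher and 2 with lower over 8 (median 0.60). Id1 and Id2, genes induced by BMP signalling that encode inhibitors of helix-loop-helix factors, did not overlap in either fit and were higher in knockout pools. Id1 had log2 levels of 4.11, 4.36, 4.03 and 4.94 in knockout pools 1, 2, 3 and 7, against 1.32, 3.94, 3.95 and 3.91 in wild type pools 1, 2, 5 and 7. Id2 had 4.96, 4.83, 4.87 and 4.92, against 2.25, 4.50, 4.78 and 4.62. Their log2 fold changes over 7 arrays were 0.43 ± 0.22 and 0.26 ± 0.10 (SE; limma adjusted p = 0.539 and 0.469), and over 8 arrays 1.08 ± 0.61 and 0.86 ± 0.55. Wild type pool 1 lay below all other pools for Smad5, Id1 and Id2.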

How the data were processed

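RNA (50 ng, integrity number above 8.0) was labelled with Cy3 and hybridised to 1 Agilent one-colour array per pool, per the labels. The authors deposited scanner files from Feature Extraction 10.7.3.1 (protocol GE1_107_Sep09, design 028005, mm9, per the file headers). Their values are in the unit intensity, with background subtracted and detrended within the array, and not scaled between arrays. The deposited matrix held the same intensity values to 3 significant digits (largest difference 0.496%). No protein sequences were used here.

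Control spots and spots marked as outliers were left out, and spots of 1 probe were averaged. Probes had to exceed background clearly (the scanner software's flag) in 3 or more pools of either genotype, and 34 such probes were dropped for a marked spot. Log2 signals minus the array's 75th percentile over probes were used. Probes took their gene through their accession (26056 matched RefSeq, GRCm38.p6) or the file's own name, and each gene was read from its brightest kept probe by mean. Groups were compared with limma 3.58.1 in R 4.3.3 (lmFit, eBayes), with Benjamini-Hochberg adjustment over all genes, and separately over all kept probes. The fit was tested on simulated data. Pools sharing a number are not stated to be pairs, so they were treated as independent. Their deviations correlated at -0.15, 0.32 and -0.41 for numbers 1, 2 and 7. So few values cannot show whether these pools are pairs. The p-values measure spread between these pools, 1 array each. The number of arrays limits the precision.

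The named genes were all 9 ligands with every probe, Aldh1a2, the 2 genes of each pathway list with the smallest unadjusted p in each fit, and the 5 genes most like the most variable ligand. Members, lists and rules were chosen with earlier results of these data known. Some genes that the rule names are not reported here. Nppa, from a marker list, was named after its values were seen. Alternatives were quantile, median and normexp (offset 50) scaling, the matrix values, no filter, the mean of a gene's probes, arrayWeights, a block on pool number, eBayes with trend and robust, and leaving out each pool.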

Additional observations from a re-analysis of the deposited data

Results flagged for a closer look

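Of 20 groups of 4 pools checked (10 kept ligand probes in each genotype), 6 had a pool far from the other 3, where chance gives about 1 in 20. In all 6 the pool was wild type pool 1, and it was the lowest of its group. Its log2 level was 0.16 for Bmp2, 3.96 for Bmp4, -1.64 for Bmp6 and 0.62 for Tgfb3. For the 2 Tgfb2 probes it was 2.18 and 1.17. No knockout group held such a pool. The wild type groups all hold the array of wild type pool 1, so their flags are not independent of each other. The share of flagged groups over all kept probes was not computed here. Before scaling, the signal of wild type pool 1 lay within the range of the other 7 arrays for 4 of the 9 ligands and above it for 5, while its 75th percentile was 4133, against 558 to 958.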

How the results depend on the processing

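No ligand passed the threshold in any of 153 alternative values over 8 arrays (17 alternatives) or 99 over 7 arrays (the latter chosen after seeing the data). In 136 and 97 of them the sign was kept. Over 8 arrays Bmp4, Bmp5, Bmp6 and Bmp10 kept their sign in every alternative. Without wild type pool 1 the sign reversed for Bmp2 (-0.28), Bmp7 (-0.39), Tgfb1 (-0.28), Tgfb2 (-0.11) and Tgfb3 (-0.18), and with array weights for the same 5 (-0.28, -0.25, -0.30, -0.13 and -0.16). Quantile scaling reversed Bmp7 (-0.51) and Tgfb3 (-0.035), as did normexp (-0.50 and -0.047). Bmp7 also reversed without knockout pool 1 (-0.0017), knockout pool 2 (-0.034) or wild type pool 2 (-0.040). Over 7 arrays Bmp4 reversed with the array median (-0.016) and Tgfb2 without wild type pool 5 (0.013). With 1 pool left out the 8-array values ran from -0.28 to 0.58 for Bmp2, from -0.39 to 0.39 for Bmp7, from -0.28 to 0.33 for Tgfb1, from -0.11 to 0.88 for Tgfb2 and from -0.18 to 0.47 for Tgfb3, and the 7-array values of Tgfb2 from -0.23 to 0.013. The causes were not tested. The number of genes past the threshold was 0 in all fits of 8 arrays, pools left out included (0 to 0), except array weights (8, no ligand among them). Over 7 arrays the array median gave 10 genes, and the others 0. The pool number as a replicate block gave 0 genes in both fits and 0 probes, and changed no call at the adjusted threshold. Under it the unadjusted p over 7 arrays was 0.187 for Bmp2 and 0.0488 for Bmp6, and the log2 fold change of Bmp5 was -0.12 and of Tgfb3 -0.36. Scaling by the array median moves all genes by the same amount (median over all genes 0.69 over 8 arrays and -0.17 over 7), so signs that change with it show only that shift. Over 8 arrays quantile scaling and normexp each turned Nodal, Hjv and Fst positive. In the file headers all arrays share 1 barcode, with endings that begin with 1 for knockout and 2 for wild type. The headers do not say what the endings stand for, and they cannot be told apart from genotype.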
